A study of Mus musculus with 4 samples.

Results

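A set of 9 genes of the CC chemokine system of myeloid cells, 8 ligands (*Ccl2*, *Ccl6*, *Ccl7*, *Ccl8*, *Ccl9*, *Ccl12*, *Ccl22* and *Ccl24*) and 1 receptor (*Ccr2*), were followed across single cells of the mouse liver. They were taken by symbol, 9 of the 31053 genes in the count matrices, and all 9 had UMIs. Liver mononuclear cells were profiled by droplet single-cell RNA-seq from C57BL/6 mice of 8 to 10 weeks. There was 1 library for each of 4 conditions. The Naïve mice had received no concanavalin A (ConA), a lectin that activates T cells and causes an acute immune injury of the liver when given intravenously. The ConA+Veh mice received ConA followed by corn oil vehicle, the ConA+TCDD mice ConA followed by 10 µg/kg of TCDD, a dioxin, and the ConA+FICZ mice ConA and FICZ, a photoproduct of tryptophan, and cells were taken 24 hours after ConA. TCDD and FICZ are both ligands of the aryl hydrocarbon receptor (AhR). The label of the ConA+Veh library names ConA alone, and its vehicle is taken from the study's methods. The methods give the 24 hours for the ConA mice in general and not for FICZ by name. The dose of FICZ and the number of mice behind each library are not given in the sources used here.

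CC chemokines are small secreted proteins that bind G protein-coupled receptors and draw leukocytes along their gradient. CCR2, on classical monocytes, is the receptor by which those cells leave the bone marrow and enter injured liver, and its mouse ligands include CCL2, CCL7 and CCL12. CCL8 is encoded beside them and is a ligand of CCR8 in the mouse. CCL6 and CCL9 are mouse ligands of CCR1, CCL22 of dendritic cells binds CCR4 on regulatory and helper T cells, and CCL24 (eotaxin-2) binds CCR3 of eosinophils and is a marker of alternatively activated macrophages.

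The Naïve library held 2086 cells, and those of ConA+Veh, ConA+TCDD and ConA+FICZ held 2779, 1880 and 2555, with median depths of 2161 to 3984 UMIs per cell. Between 4 and 15 barcodes were shared by a pair of libraries, and 0 of these were gated to a myeloid class in both. Cells were sorted into classes by marker genes that exclude the 9 genes. The minimum numbers of markers were loosened once, after it was seen how many UMIs of the 9 genes were left out. Macrophage-like cells, which held at least 2 of the 3 C1q genes and 2 of 6 phagocyte genes, numbered 15, 178, 25 and 159 in Naïve and in the ConA+Veh, ConA+TCDD and ConA+FICZ libraries. Monocyte-like cells numbered 59, 27, 12 and 26 in the same order, dendritic-like cells 14, 18, 10 and 4, and neutrophil-like cells 23, 98, 39 and 257. With 1 library per condition there is no replicate check anywhere in these results, and every interval is a 95% counting interval that covers counting error only.

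The markers set limits on these names. Of the Kupffer cell genes (*Cd5l*, *Clec4f*, *Vsig4*, *Timd4* and *Marco*), which mark the resident macrophages of the liver, the macrophage-like cells held 0, 58, 6 and 8 UMIs in the 4 libraries, that is 0, 37.4, 23.5 and 6.13 CPM (UMIs per 1000000 UMIs of the class). In contrast, 73.3%, 66.3%, 72.0% and 73.6% of the macrophage-like cells held 2 or more monocyte markers. The class therefore stood close to the monocyte-like cells. When all cells were clustered, 1 cluster of 682 cells held means of 1.72 C1q genes and 2.43 monocyte markers per cell. No cluster was named for either class alone, and the overlap of this cluster with the gated cells was not counted. For this reason each comparison was also made in the joined class of 74, 205, 37 and 185 macrophage-like or monocyte-like cells. The joined class did not have the same makeup in each library, as C1q-positive cells were 20.3% of it in Naïve (11.8 to 31.2%), 86.8% in ConA+Veh (81.4 to 91.1%), 67.6% in ConA+TCDD (50.2 to 82.0%) and 85.9% in ConA+FICZ (80.1 to 90.6%). The part of this makeup in the results of the joined class was not tested. Neutrophil-like cells held a median of 7 neutrophil markers in every library, monocyte-like cells 3 to 4 monocyte markers and dendritic-like cells 2.5 to 3 dendritic markers.

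The genes of the CCR2 ligands and *Ccl8* are neighbours in the genome. *Ccl2* (chromosome 11, 82035571 to 82037453, plus strand, GRCm38), *Ccl7* (82045712 to 82047525), *Ccl12* (82101845 to 82103400) and *Ccl8* (82115185 to 82116799) are protein-coding genes within 81.2 kb. *Ccl2*, the main monocyte attractant of the group, was present in the Naïve library as well as after ConA. In macrophage-like cells its level was 876 CPM in Naïve, 955 CPM in ConA+Veh, 1369 CPM in ConA+TCDD and 1128 CPM in ConA+FICZ. As summed over all cells the ConA+TCDD level was the highest, and the log2 ratio of ConA+Veh over Naïve was 0.13 (-0.13 to 0.40), an interval that includes no difference. The ratio of ConA+TCDD over ConA+Veh was 0.52 (0.35 to 0.69), an interval above 0 but under 2-fold, and that of ConA+FICZ over ConA+Veh was 0.24.

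Most cells with *Ccl2* held few UMIs of it and a few cells held many. It was seen in 9 of 15, 117 of 178, 15 of 25 and 95 of 159 macrophage-like cells. In ConA+TCDD 1 cell held 152 of the 350 UMIs, and that cell carried 8 neutrophil markers as well as 3 C1q genes. The 3 cells with the most *Ccl2* held 75.6% of the class's *Ccl2* UMIs in Naïve, 19.2% in ConA+Veh, 80.0% in ConA+TCDD and 33.1% in ConA+FICZ. The Naïve and ConA+TCDD levels thus rested on 3 cells each, and counting intervals do not cover the spread between cells. Without these 3 cells of each library, which are 3 of 15 and 3 of 25 cells there and 3 of 178 in ConA+Veh, the order turned. ConA+Veh was then above Naïve by a log2 ratio of 1.31 and ConA+TCDD was under ConA+Veh by -1.21, both past 2-fold. With the gate read at 1000 UMIs per cell ConA+TCDD was above ConA+Veh by 1.33, so no order of these 2 libraries held for *Ccl2*. In monocyte-like cells *Ccl2* stood at 249, 749, 198 and 1637 CPM in the 4 libraries. There the ConA+Veh level was above Naïve by 1.59 on the log2 scale, ConA+TCDD was under ConA+Veh, with a log2 ratio of -1.92, and ConA+FICZ was above ConA+Veh by 1.13. These rest on 50, 127, 25 and 242 UMIs, of which 1 cell gave 30, 86, 14 and 137. Neutrophil markers summed to 294, 8490, 6470 and 2140 CPM in the same monocyte-like cells, and the progenitor genes *Prtn3* to 125, 389, 1679 and 257 CPM and *Elane* to 0, 136, 586 and 20.3 CPM, both highest in ConA+TCDD. Their part in the ratios of monocyte-like cells was not tested. Without the cells that held 2 markers of a second class, the ratio of ConA+FICZ over ConA+Veh was -1.44.

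**Figure D1:**
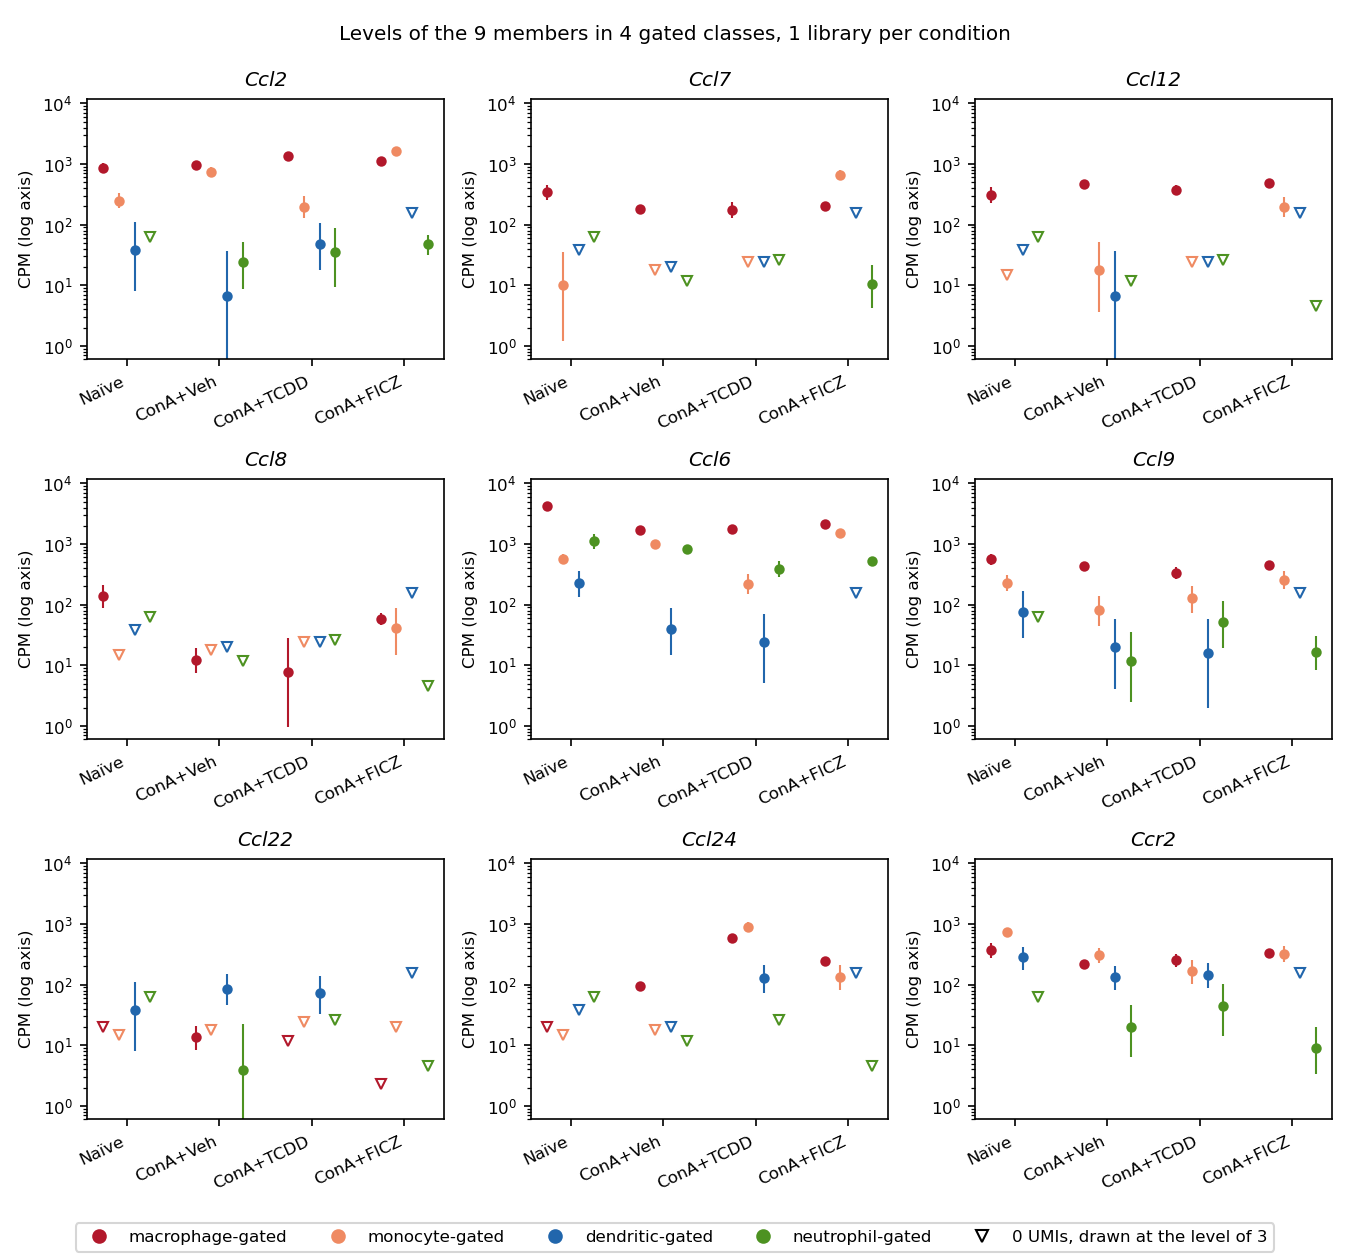
Level of each of the 9 genes in the macrophage-like, monocyte-like, dendritic-like and neutrophil-like cells of the 4 libraries, in CPM on a log axis, with 95% counting intervals. Open triangles mark classes with 0 UMIs, drawn at the level that 3 UMIs would give. *Ccl6* is the member with the highest level in macrophage-like cells of every library, and in neutrophil-like cells it stands above the other members.

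*Ccl7* and *Ccl12* lay under *Ccl2* in the macrophage-like cells of every library. *Ccl12* stood at 308, 477, 376 and 479 CPM and *Ccl7* at 348, 180, 176 and 201 CPM in Naïve and then ConA+Veh, ConA+TCDD and ConA+FICZ. As summed, no pair of libraries compared reached 2-fold for either gene in this class, and the log2 ratios of ConA+Veh over Naïve were 0.63 for *Ccl12* and -0.95 for *Ccl7*. The Naïve values came from 46 UMIs of *Ccl12* in 5 cells and 52 UMIs of *Ccl7* in 4 cells, with 31 and 42 of them in 1 cell. Without the top cell of each library ConA+Veh was above Naïve by 1.86 for *Ccl12* and 0.98 for *Ccl7*, and without the top 3 by 4.28 and 3.67. Without the top 3 ConA+TCDD was under ConA+Veh by -1.91 for *Ccl12* and -3.19 for *Ccl7*. These are 3 of 15 cells in Naïve and 3 of 25 in ConA+TCDD but 3 of 178 in ConA+Veh. For a gene held by few cells, so unequal a cut can by itself lower the Naïve and ConA+TCDD levels. The ratios without top cells therefore show how much the sums rest on a few cells and do not give a direction. With the gate read at 1000 UMIs ConA+TCDD was above ConA+Veh by 1.003 for *Ccl7*. Under that gate, with 1 marker more in the gate and as mean UMIs per cell, *Ccl7* was at least 2-fold lower in ConA+Veh than in Naïve. Without cells that held 2 markers of a second class it was at least 2-fold higher, so no order of these libraries held for *Ccl7*. In monocyte-like cells *Ccl7* had 2, 0, 0 and 98 UMIs, of which 93 lay in 1 cell of ConA+FICZ. *Ccl12* was counted mainly in C1q-positive cells, and monocyte-like cells held 0, 3, 0 and 29 UMIs of it. In the joined class its level was 131 CPM in Naïve, 432 CPM in ConA+Veh, 251 CPM in ConA+TCDD and 451 CPM in ConA+FICZ, so that ConA+Veh was 3.28-fold above Naïve (log2 ratio 1.72, 1.29 to 2.18). C1q-positive cells were 20.3% of that class in Naïve and 86.8% in ConA+Veh.

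*Ccl8* was sparse and came from single cells. The macrophage-like cells held 21, 19, 2 and 77 UMIs of it, and 20 of the 21 in Naïve and 69 of the 77 in ConA+FICZ lay in 1 cell of each library. The pooled levels of 140, 12.2, 7.83 and 59.0 CPM give log2 ratios of -3.52 for ConA+Veh over Naïve and 2.27 for ConA+FICZ over ConA+Veh. Without the cell with the most *Ccl8* of each library these ratios were 0.17 and -0.33, so neither difference was held by more than 1 cell.

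Sequence upstream of *Ccl12* and *Ccl8* is shown because these neighbours, which differed in how many cells carried them, hold the same motif at nearly the same place. The 250 bases before each start site are given 5′ to 3′ on the gene's strand (RefSeq, GRCm38.p6, chr11:82101595-82101844 and chr11:82114935-82115184, both plus strand), with matches to the motifs searched in capitals.
Ccl12: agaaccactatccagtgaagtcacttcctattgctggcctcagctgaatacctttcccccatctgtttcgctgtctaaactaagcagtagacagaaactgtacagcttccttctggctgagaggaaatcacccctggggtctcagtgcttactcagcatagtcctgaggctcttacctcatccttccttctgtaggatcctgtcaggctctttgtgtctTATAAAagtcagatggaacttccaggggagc
Ccl8: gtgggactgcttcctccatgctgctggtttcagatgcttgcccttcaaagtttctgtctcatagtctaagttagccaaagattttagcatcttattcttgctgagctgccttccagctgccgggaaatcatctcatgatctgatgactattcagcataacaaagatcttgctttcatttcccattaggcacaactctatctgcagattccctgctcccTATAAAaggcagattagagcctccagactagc
Both held TATAAA, 31 bases before the start in *Ccl12* and 32 bases before it in *Ccl8*, a match that 12.4% of 32851 promoters of the same length hold on either strand. Neither held GCGTG, the core bound by AhR (28.2% of promoters), TGANTCA of AP-1 (6.75%), TTCNNNGAA of STAT factors (7.02%) or the NF-κB motif (5.93%). A match of this kind is a description of the letters and not of a bound factor.

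*Ccl6* and *Ccl9*, ligands of CCR1, lie 20.2 kb end to end on the minus strand of chromosome 11 (*Ccl9* at 83572919 to 83578636 and *Ccl6* at 83587882 to 83593087). *Ccl6* was the highest of the 9 genes in macrophage-like cells. Its level there was 4258 CPM in Naïve, 1681 CPM in ConA+Veh, 1780 CPM in ConA+TCDD and 2155 CPM in ConA+FICZ. The Naïve level was the highest and ConA+Veh lay 2.53-fold under it (log2 ratio -1.34, -1.47 to -1.21). This Naïve level came from 637 UMIs in 14 of 15 cells, of which 1 cell held 251, and without the top cell of each library the log2 ratio was -0.90. Between the ConA libraries the levels lay within 2-fold (log2 ratio over ConA+Veh 0.08 in ConA+TCDD and 0.36 in ConA+FICZ). In monocyte-like cells *Ccl6* stood at 568, 997, 222 and 1549 CPM, with ConA+TCDD under ConA+Veh by a log2 ratio of -2.17 from 28 and 169 UMIs. The 28 UMIs lay in 3 of 12 cells, and with the gate read at 1000 UMIs per cell the ratio was -0.23. In the joined class the levels were 2145, 1614, 1265 and 2094 CPM, and no pair compared reached 2-fold.

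*Ccl6* was also the 1 member with a sizeable level in neutrophil-like cells. They held 1109 CPM in Naïve, 838 CPM in ConA+Veh, 393 CPM in ConA+TCDD and 520 CPM in ConA+FICZ, from 54, 211, 45 and 341 UMIs in 10, 47, 14 and 88 cells. The level in ConA+TCDD was 2.13-fold under that in ConA+Veh (log2 ratio -1.09, -1.59 to -0.62). The ratio was negative under every alternative run but passed 2-fold under only part of them, from -0.48 with 1 marker more in the gate to -1.81 without the top 3 cells. In the same libraries macrophage-like cells stood above neutrophil-like cells by 1.94, 1.01, 2.18 and 2.05 on the log2 scale. The other 8 genes had at most 31 UMIs in the neutrophil-like cells of any library. A further source of *Ccl6* lay outside the 4 classes, in 1 to 3 cells per library with basophil or mast cell markers, which held 0, 160, 56 and 113 UMIs.

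In macrophage-like cells *Ccl9* was lower than *Ccl6*, and as summed no pair of libraries compared reached 2-fold. Macrophage-like cells held 562, 430, 333 and 459 CPM of it in Naïve and then ConA+Veh, ConA+TCDD and ConA+FICZ, from 84, 668, 85 and 600 UMIs. The log2 ratios were -0.38 for ConA+Veh over Naïve, -0.37 for ConA+TCDD over ConA+Veh and 0.09 for ConA+FICZ over ConA+Veh, all under 2-fold. With 1 marker more in the gate *Ccl9* was lower in ConA+Veh than in Naïve by at least 2-fold. Of the 50-base stretches of *Ccl9*, 1.97% occur in other genes (250 genes), and of those of *Ccr2* 1.91% (12 genes). Some UMIs of these 2 genes may thus be uncertain, and how many was not tested. Monocyte-like cells held 229, 82.6, 127 and 257 CPM. In that class ConA+Veh was under Naïve (log2 ratio -1.47) and ConA+FICZ above ConA+Veh (1.64), with 14 UMIs in ConA+Veh behind both ratios.

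The sequences upstream of *Ccl9* and *Ccl6* are shown because the 2 neighbours share a receptor and a cell class but differ in their promoter letters (RefSeq, GRCm38.p6, chr11:83578637-83578886 and chr11:83593088-83593337, both minus strand, 250 bases 5′ to 3′, motif matches in capitals).
Ccl9: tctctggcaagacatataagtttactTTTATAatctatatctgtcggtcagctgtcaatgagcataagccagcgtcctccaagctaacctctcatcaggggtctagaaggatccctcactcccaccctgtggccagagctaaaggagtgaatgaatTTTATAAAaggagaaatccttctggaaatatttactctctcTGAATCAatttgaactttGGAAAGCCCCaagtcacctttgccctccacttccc
Ccl6: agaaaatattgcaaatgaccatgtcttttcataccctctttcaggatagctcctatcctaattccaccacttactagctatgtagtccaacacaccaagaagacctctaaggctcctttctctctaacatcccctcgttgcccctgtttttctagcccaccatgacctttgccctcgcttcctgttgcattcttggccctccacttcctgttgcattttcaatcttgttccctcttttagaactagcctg
In *Ccl9* the capitals are TATAAA at 92 bases before the start and, on the other strand, at 94 and 224 bases, TGANTCA at 53 bases and the NF-κB motif at 35 bases on the other strand. The matches at 92 and 94 bases overlap. *Ccl6* held none of the motifs searched, and neither held GCGTG. The longest run of letters that both share is 13 bases. *Ccl2*, *Ccl7* and *Ccl24* had no entry among the promoter sequences used.

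*Ccl24* (chromosome 5, 135569937 to 135573049, minus strand, protein-coding) separated the libraries most clearly. Macrophage-like cells held 0 UMIs of it in Naïve, 149 in ConA+Veh, 148 in ConA+TCDD and 323 in ConA+FICZ, which are levels of 0, 96.0, 579 and 247 CPM. It was counted in 0 of 15, 31 of 178, 12 of 25 and 28 of 159 of these cells. The level in ConA+TCDD was 6.03-fold that in ConA+Veh (log2 ratio 2.59, 2.26 to 2.93). In the joined class, at 0, 86.5, 681 and 236 CPM, it was 7.87-fold (log2 ratio 2.98, 2.68 to 3.28). The difference was present in the share of cells as well as in the level. With every cell thinned to 1000 UMIs, 28.0% of macrophage-like cells held *Ccl24* in ConA+TCDD (7 of 25, 12.1 to 49.4%) against 7.02% in ConA+Veh (12 of 171, 3.68 to 11.9%) and 4% in ConA+FICZ (6 of 150, 1.48 to 8.50%), and the unthinned shares were 48.0%, 17.4% and 17.6%.

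The ConA+TCDD level of *Ccl24* in macrophage-like cells was spread over several cells. The cell with the most held 35 of the 148 UMIs among macrophage-like cells. A cell with this count, of 29569 UMIs in all, also carried 8 neutrophil markers and 152 of the 350 *Ccl2* UMIs of the class. In the joined class 1 monocyte-like cell of 4450 UMIs held 108 of the *Ccl24* UMIs (41.5%). Without the cell with the most UMIs of each library the log2 ratio of ConA+TCDD over ConA+Veh was 2.65 in macrophage-like cells and 2.49 in the joined class, and without the top 3 cells of each it was 2.40 and 2.35. The ratio still rests on 25 macrophage-like cells in ConA+TCDD, of which 8 only just met the gate. The C1q genes of the gate summed to 6470, 6210, 3760 and 7550 CPM in the macrophage-like cells of the 4 libraries and the monocyte markers to 2970, 2510, 3140 and 2990 CPM, and their part in the ratio was not tested. The ConA+FICZ level was of another kind. There 1 cell of 27558 UMIs held 255 of the 323 UMIs, so that the log2 ratio of 1.37 (1.08 to 1.66) over ConA+Veh became -0.58 without the top cells.

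As summed, ConA+Veh stood above Naïve for *Ccl24*, where the bound is set by the few Naïve cells. Against the level that 3 UMIs would have given in Naïve, ConA+Veh was at least 4.79-fold higher in macrophage-like cells and at least 10.1-fold higher in the joined class. The joined class adds 59 Naïve monocyte-like cells, but monocyte-like cells held 0 UMIs of *Ccl24* in ConA+Veh as well. At 1000 UMIs per cell 0 of 14 Naïve macrophage-like cells held it (0 to 23.2%). That interval includes the 7.02% of ConA+Veh, so the share of cells shows no difference between these 2 libraries. Most *Ccl24* lay in myeloid classes, and B cells and T or NK cells held it in at most 0.146% of thinned cells. CCR3, the receptor of CCL24, was all but unseen, with 0, 2, 0 and 0 UMIs of *Ccr3* in the whole libraries, and 0 cells met the eosinophil gate.

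**Figure D2:**
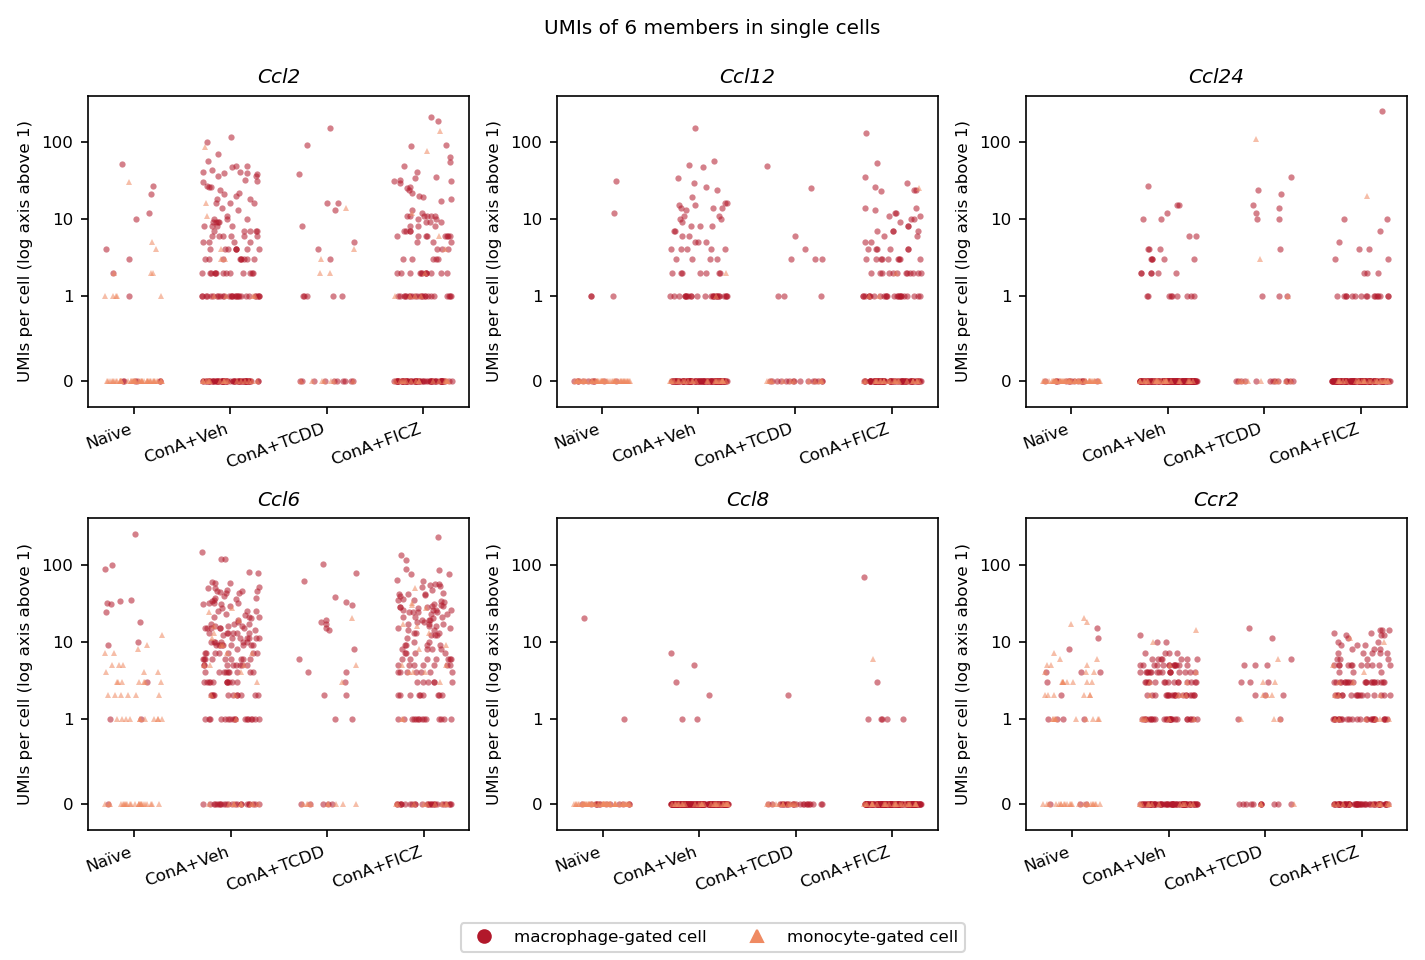
UMIs per cell (log axis above 1) of 6 of the genes in the 4 libraries, with macrophage-like cells as circles and monocyte-like cells as triangles, which the legend calls gated. *Ccl24* in ConA+TCDD is carried by several macrophage-like cells and by 1 monocyte-like cell with 108 UMIs. In ConA+FICZ 1 macrophage-like cell with 255 UMIs holds most of it.

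*Ccl22* (chromosome 8, 94745590 to 94751699, plus strand, protein-coding) was the rarest member, with 20, 47, 15 and 1 UMIs in the whole libraries. Dendritic-like cells held 3, 13, 9 and 0 of these UMIs, in 1, 4, 1 and 0 cells, which are levels of 38.3, 86.2, 73.0 and 0 CPM. ConA+FICZ held 4 dendritic-like cells, so its 0 is not read as a difference. Macrophage-like cells held *Ccl22* in ConA+Veh alone, as 21 UMIs of 1 cell, and that cell carried 3 dendritic markers as well as 3 C1q genes. Against the level of 3 UMIs, the macrophage-like cells of ConA+FICZ were at least 5.89-fold lower than those of ConA+Veh, a difference held by that 1 cell. In Naïve 17 of the 20 UMIs lay in cells outside the named classes. *Ccr4*, the receptor of CCL22, had 13, 19, 14 and 11 UMIs per library, of which 13, 17, 12 and 10 lay in T or NK cells.

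The receptor *Ccr2* (chromosome 9, 124101950 to 124113557, plus strand, protein-coding) was found in macrophage-like, monocyte-like and dendritic-like cells. Its highest level was in the monocyte-like cells of Naïve, at 733 CPM, and in ConA+Veh, ConA+TCDD and ConA+FICZ these cells held 307, 166 and 325 CPM. ConA+Veh was under Naïve in this class by a log2 ratio of -1.26. Macrophage-like cells held 368, 219, 250 and 332 CPM in the 4 libraries, and no pair compared reached 2-fold there (log2 ratios -0.75, 0.19 and 0.60). In Naïve monocyte-like cells stood above macrophage-like cells, with a log2 ratio of macrophage-like over monocyte-like cells of -0.995 (-1.47 to -0.54). That ratio was -0.49 (-0.91 to -0.04) in ConA+Veh, 0.59 (-0.14 to 1.38) in ConA+TCDD and 0.03 (-0.40 to 0.49) in ConA+FICZ.

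In the joined class *Ccr2* stood at 577 CPM in Naïve, 228 CPM in ConA+Veh, 223 CPM in ConA+TCDD and 331 CPM in ConA+FICZ. ConA+Veh was 2.53-fold under Naïve (log2 ratio -1.34, -1.59 to -1.09). As mean UMIs per cell the difference was -0.51 on the log2 scale, under 2-fold, and cells of this class held a median of 6261 UMIs in ConA+Veh and 2849 in Naïve. The share of cells with *Ccr2* at 1000 UMIs was 36.8% in Naïve, 19.3% in ConA+Veh, 27.0% in ConA+TCDD and 27.3% in ConA+FICZ. Dendritic-like cells held 22, 20, 18 and 0 UMIs of *Ccr2*, at 281, 133, 146 and 0 CPM. A large part of *Ccr2* lay in lymphocytes: T or NK cells held 39.6%, 33.0%, 48.6% and 23.2% of the UMIs of each library, at levels of 81.9, 29.0, 26.1 and 27.1 CPM.

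**Figure D3:**
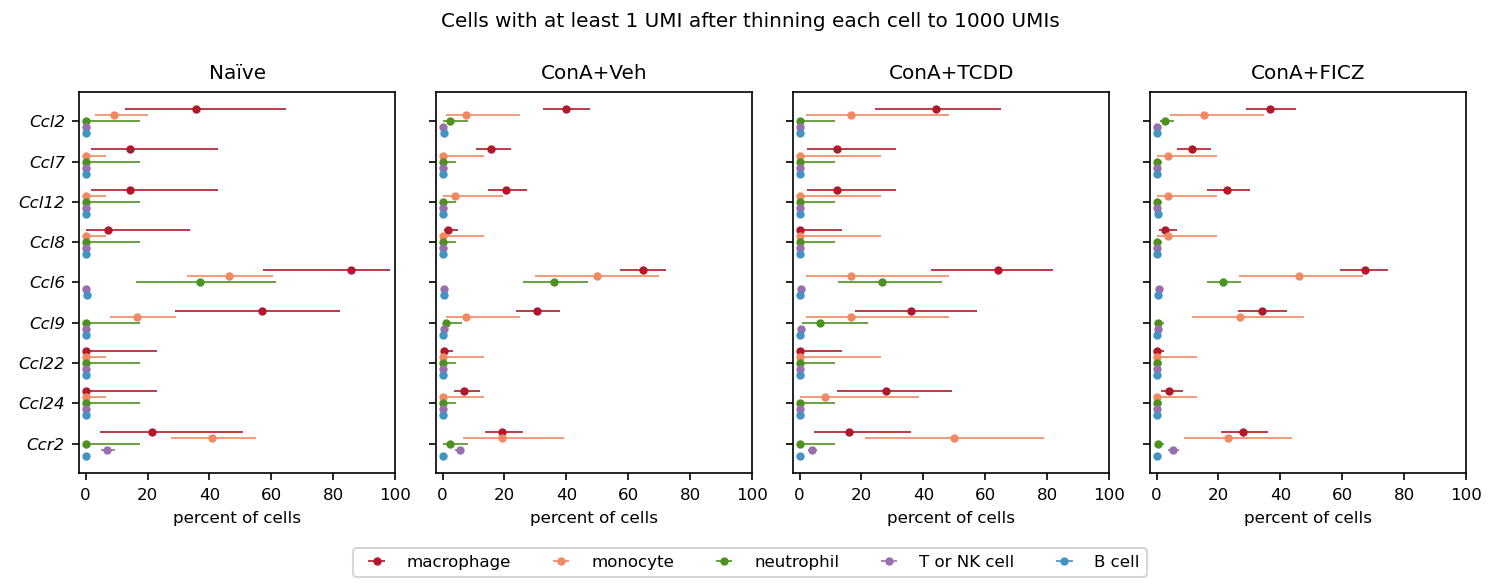
Share of cells with at least 1 UMI of each gene after thinning every cell to 1000 UMIs, in percent with 95% exact binomial intervals, for macrophage-like, monocyte-like, neutrophil-like, T or NK and B cells of each library. *Ccl6* is the most widely held gene in macrophage-like cells and *Ccr2* is the gene seen in T or NK cells.

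At equal depth the members differed widely in how many macrophage-like cells carried them. At 1000 UMIs per cell *Ccl6* was in 85.7%, 64.9%, 64.0% and 67.3% of cells of the 4 libraries, *Ccl9* in 57.1%, 30.4%, 36.0% and 34.0%, and *Ccl2* in 35.7%, 39.8%, 44.0% and 36.7%. *Ccl12* was in 14.3%, 20.5%, 12.0% and 22.7%, and *Ccl7* in 14.3%, 15.8%, 12.0% and 11.3%. B cells, which should lack all 9 genes, held each of them in at most 0.563% of thinned cells, under each of the shares just given. The medians before thinning were 5889 to 8230 UMIs in macrophage-like cells and 2121 to 4036 UMIs in B cells. T or NK cells held *Ccr2* in 7.02%, 5.47%, 3.91% and 5.41% of thinned cells, also above the share in B cells, and the other members in at most 0.731%.

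Over the 9 genes, few differences in macrophage-like cells passed the rule used for all genes. The rule asks for at least 2-fold between the CPM of 2 libraries, a counting interval that excludes no difference and at least 20 UMIs. Monocyte-like cells are left out of these counts, and no share over all genes was computed for them. There *Ccl2* was higher and *Ccl9* and *Ccr2* lower in ConA+Veh than in Naïve. Against ConA+Veh, *Ccl24* was higher and *Ccl2* and *Ccl6* lower in ConA+TCDD, and *Ccl2*, *Ccl7*, *Ccl9*, *Ccl12* and *Ccl24* were higher in ConA+FICZ. These calls of monocyte-like cells cannot be set against all genes, and several rest on 1 cell. In ConA+FICZ 1 cell held all 20 UMIs of *Ccl24*, 25 of 29 of *Ccl12* and 93 of 98 of *Ccl7*. In ConA+TCDD 1 cell held 108 of 112 *Ccl24* UMIs, and without the top cell of each library the log2 ratio fell from 5.65 to 0.88. For ConA+Veh over Naïve in macrophage-like cells 1 member was higher (*Ccl24*) and 2 were lower (*Ccl8* and *Ccl6*), where 2.62% and 4.41% of 6599 genes were higher and lower. Without the top cell of each library both lower calls were lost and *Ccl12* was also higher, and without the top 3 *Ccl2*, *Ccl7*, *Ccl12* and *Ccl24* were higher and 0 were lower. For ConA+TCDD over ConA+Veh 1 member was higher (*Ccl24*) and 0 were lower, against 1.90% and 2.24% of 6727 genes. Without the top 3 cells, which are 3 of 25 in ConA+TCDD and 3 of 178 in ConA+Veh, *Ccl2*, *Ccl7* and *Ccl12* were lower as well. For ConA+FICZ over ConA+Veh 2 were higher (*Ccl8* and *Ccl24*) and 1 was lower (*Ccl22*), against 3.42% and 1.25% of 7944 genes. All 3 calls for ConA+FICZ were lost when 1 cell of each library was left out. The shares over all genes were not computed with cells left out. The counts without top cells therefore cannot be set against the shares given here. The median log2 ratios of the members were -0.566, -0.03 and 0.239 in the 3 comparisons, and those of all genes tested were -0.025, -0.056 and 0.124.

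In the joined class 2 members were higher (*Ccl12* and *Ccl24*) and 2 lower (*Ccl8* and *Ccr2*) in ConA+Veh than in Naïve, with 4.27% and 9.55% of 7236 genes higher and lower. In ConA+TCDD over ConA+Veh 1 was higher (*Ccl24*) and 0 were lower, with 2.44% and 2.91% of 7137 genes. Without the top cell of each library *Ccl2* and *Ccl7* were also higher and *Ccl8* no longer lower in ConA+Veh than in Naïve, and *Ccl7* and *Ccl12* were lower in ConA+TCDD than in ConA+Veh. The shares over all genes were not computed for that setting. In ConA+FICZ over ConA+Veh 2 were higher (*Ccl8* and *Ccl24*) and 1 lower (*Ccl22*), with 3.02% and 1.26% of 8175 genes. Both AhR ligand comparisons use the same ConA+Veh library. For *Ccl24*, the member higher in both, the log2 ratios in the joined class were 2.98 for ConA+TCDD and 1.45 for ConA+FICZ, and without the top cell of each library they were 2.49 and -0.22.

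**Figure D4:**
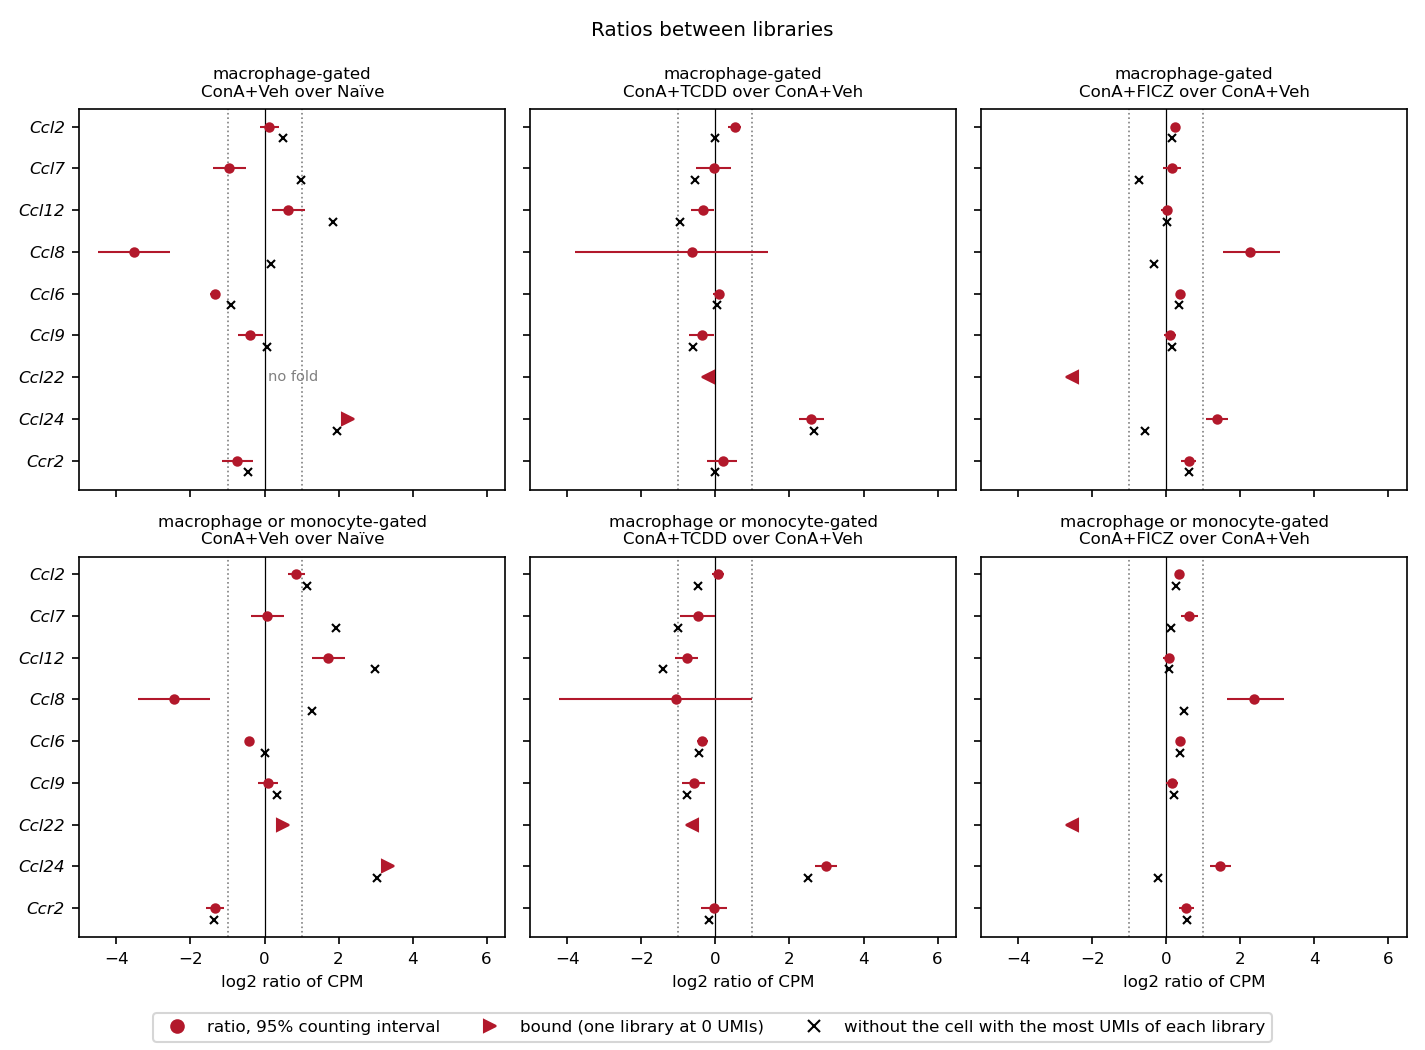
Log2 ratio of the CPM of each gene for ConA+Veh over Naïve and for each AhR ligand library over ConA+Veh, with 95% counting intervals. Triangles are bounds where 1 library held 0 UMIs, crosses give the ratio without the cell with the most UMIs of each library, and dotted lines mark 2-fold. The cross stays near the point for *Ccl24* in ConA+TCDD. In ConA+FICZ it crosses 0 for *Ccl24* in macrophage-like cells and in the joined class, and for *Ccl8* in macrophage-like cells only.

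The share of macrophage-like cells differed more from ConA+Veh in Naïve and ConA+TCDD than the level of most members in these cells did. The shares of the other classes did not all run the same way. In Naïve and ConA+Veh monocyte-like cells were 2.83% and 0.972% of the cells and dendritic-like cells 0.671% and 0.648%. Neutrophil-like cells were 1.10%, 3.53%, 2.07% and 10.1% of the cells in the 4 libraries. Like macrophage-like cells, they were a smaller share in Naïve and ConA+TCDD than in ConA+Veh. Macrophage-like cells were 0.719%, 6.41%, 1.33% and 6.22% of the cells in Naïve and then ConA+Veh, ConA+TCDD and ConA+FICZ, and the UMIs of *Ccl2* in the whole library were 268, 2130, 586 and 2383. Those of *Ccl12* were 46, 777, 106 and 771 and those of *Ccl6* 845, 3595, 805 and 3792. For these genes the whole-library count was lower in ConA+TCDD than in ConA+Veh, libraries of 12077209 and 19252211 UMIs in all. *Ccl24* was the exception among the ligands with over 100 UMIs in ConA+Veh, at 0, 170, 340 and 356 UMIs.

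The gate was loosened once in view of how many UMIs of these genes it left out, so the shares held by the 4 classes are a description and were partly set by that choice. The levels, ratios and shares of cells in the 4 classes rest on the same gate. The 4 classes together held 65.7% to 75.9% of the *Ccl2* UMIs, 66.0% to 97.4% of the *Ccl6* UMIs and 81.2% to 96.3% of the *Ccl24* UMIs of the libraries that had any. Endothelial cells were a further source of *Ccl2*, with 487, 845, 1636 and 1619 CPM from 77, 248, 57 and 338 UMIs. They numbered 44, 60, 8 and 44 cells, so the ConA+TCDD level rests on 8 cells. Fibroblast-like or stellate-like cells held 88 of the 395 *Ccl7* UMIs in ConA+Veh and 35 of 94 in ConA+TCDD. In ConA+TCDD cells set apart as myeloid progenitors held 13% of *Ccl2*, 19.8% of *Ccl6* and 10.6% of *Ccl24*. They held at least 2 granule genes (*Mpo*, *Elane*, *Prtn3* and *Ctsg*), with more UMIs of these than of the monocyte and macrophage markers. These 30 cells stood outside the 4 classes and enter none of the ratios, but other cells with granule genes stayed in the classes.

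**Figure D5:**
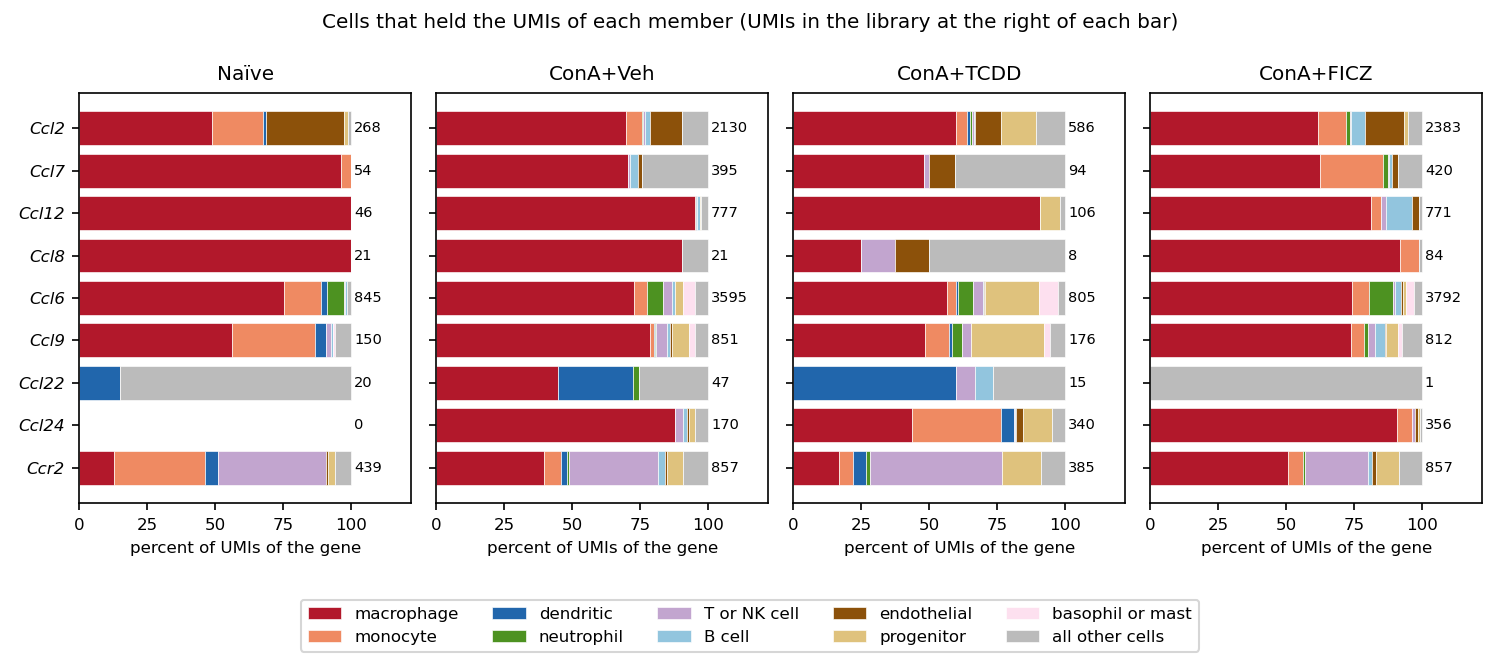
Share of the UMIs of each gene held by each cell class, in percent, with the total UMIs of the gene in the library at the right. Macrophage-like cells hold most *Ccl6* and *Ccl12*, and T or NK cells hold 23.2% to 48.6% of *Ccr2*.

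Several ligands were often found in the same cell. In ConA+Veh 37 of the 42 macrophage-like cells with *Ccl7* (88.1%) and 63 of the 73 with *Ccl12* (86.3%) also held *Ccl2*, which 65.7% of all macrophage-like cells of that library held. *Ccl6* was in 111 of the 115 cells with *Ccl9* (96.5%) and in 87.6% of all. In ConA+FICZ 28 of 32 cells with *Ccl7* and 63 of 79 with *Ccl12* held *Ccl2*, in ConA+TCDD 5 of 5 and 9 of 10, and in Naïve 4 of 4 and 3 of 5, where 59.8%, 60.0% and 60.0% of all cells held it. At least 3 of the 8 ligands were in 66.7%, 65.7%, 60.0% and 64.8% of macrophage-like cells of the 4 libraries, and at least 1 was in 93.3%, 96.1%, 100% and 94.3%. Of the 103 ConA+Veh cells with the receptor *Ccr2*, 77 also held its ligand *Ccl2*. Depth differed along with these shares, as macrophage-like cells of ConA+Veh with *Ccl2* had a median of 7796 UMIs and those without it 3556, and its part in the overlap was not tested.

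The rest of the CC system, a list of 13 other receptors and 12 other ligands, had few members with enough UMIs in macrophage-like cells. Of the 3 ligands tested in ConA+Veh over Naïve, 2 were higher (*Ccl4*, log2 ratio 2.34, and *Ccl5*, 4.92 with an interval of 2.44 to 10.2 around 1 Naïve UMI) and 1 was lower (*Ccl3*, -1.31). In ConA+TCDD over ConA+Veh all 3 were lower, *Ccl3* by a log2 ratio of -1.97, *Ccl4* by -1.23 and *Ccl5* by -2.70. The ConA+TCDD values rest on 7, 70 and 8 UMIs. Over all genes 2.62% were higher and 4.41% lower in ConA+Veh over Naïve. For ConA+TCDD and ConA+FICZ over ConA+Veh 2.24% and 1.25% were lower. The ratios of this list were not recomputed without the top cells or with other gates. CCL3 and CCL5 are, like CCL6 and CCL9, ligands of CCR1. *Ccl5* stood at 6.68, 203, 31.3 and 19.9 CPM in macrophage-like cells, and in ConA+FICZ it was the 1 of 3 ligands lower than in ConA+Veh (log2 ratio -3.35). The summed T and NK cell markers in the same macrophage-like cells stood at 0, 24.5, 3.91 and 5.36 CPM in the 4 libraries, and their part in the *Ccl5* values was not tested. Of the 3 receptors tested, 1 was higher in ConA+Veh than in Naïve (*Ccrl2*, an atypical receptor, 1.56) and 0 passed in the other comparisons. *Ccr1*, which binds CCL6 and CCL9, stood at 140, 152, 188 and 211 CPM in macrophage-like cells and at 596, 607, 542 and 540 CPM in neutrophil-like cells.

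The genes whose levels ran most like those of the members were sought over the 16 sums of 4 classes in 4 libraries, among 3499 genes with at least 200 UMIs. Pearson's r describes these 16 points, which share libraries and depth. The classes were gated on some of the genes compared, so r with a gene of the gate is partly set by the gate. *Ccl7* and *Ccl12* were most like each other (r = 0.93), and *Ccl7* was next like *Ctsb* (0.889) and *Tmem37* (0.886). *Ccl12* was also like *Tmem37* (0.928) and *C1qa* (0.91), a complement gene of the macrophage gate. *Ccl2* was like *Maf* (0.958), a macrophage transcription factor, *Rnpep* (0.949) and *F13a1* (0.948), a monocyte marker of the gate. *Ccl6* was like *Aldh3b1* (0.919), *Ctsd* (0.914) and *Fcgr3* (0.908), a phagocyte gene of the gate. *Ccl9* was like *Kars* (0.932), *Ccl2* (0.92) and *Cd302* (0.916). *Ccl24* had the loosest matches of those measured, *Ldha* (0.811), *Sdc4* (0.785) and *Pgam1* (0.749), of which *Ldha* and *Pgam1* are glycolytic enzymes. *Ccr2* was like *Hnrnpll* (0.973), *Tifab* (0.967) and *Ndufv1* (0.959). *Ccl8* and *Ccl22* had too few UMIs for a match.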

How the data were processed

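Liver mononuclear cells were captured with a 10x 5′ kit, and the authors deposited 1 matrix of raw UMI counts per gene and cell for each of the 4 libraries, made with Cell Ranger 3.0.2 against mm10. Because each molecule is counted once at its 5′ end, levels can be set side by side between genes. The genes, marker lists and tests were chosen with earlier results of these data known. No further filter on cells was applied and doublets were not removed in the values as reported. No per-sample column was left unused.

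Cells with 2 or more B or T/NK markers were set apart. So were cells with markers of basophils, plasmacytoid dendritic cells, eosinophils, endothelium, stellate cells (2 each), erythroid cells (3) or hepatocytes (4). Cells with 2 progenitor genes were set apart only where the UMIs of these genes outnumbered those of the monocyte and macrophage markers. Other cells with 2 progenitor genes could stay in the 4 classes. Neutrophil-like cells held at least 4 of 9 markers. Macrophage-like cells held 2 of 3 C1q and 2 of 6 phagocyte genes, dendritic-like cells 2 of 9 markers, and monocyte-like cells 2 of 10 markers and 3 phagocyte genes. These minimums were set after marker counts were seen and loosened once, after it was seen how many UMIs of the 9 genes the stricter gate left out. Cells exactly at the minimum numbered 5, 43, 8 and 35 among macrophage-like cells of Naïve and then ConA+Veh, ConA+TCDD and ConA+FICZ, and 1, 11, 5 and 14 cells were 1 marker short.

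UMIs were summed per class and library and given as CPM (UMIs per 1000000 UMIs of the class). Levels carry exact Poisson intervals, shares exact Clopper-Pearson intervals and ratios exact binomial intervals, all at 95%, and for 0 UMIs a floor of 3 was used. With 1 library per condition there is no test across samples. All 9 genes were described, by the rule that every listed gene is named. Shares were read after thinning each cell to 1000 UMIs, shallower cells left out. Likeness between genes used log2(CPM + 10). The ratio step was tested on simulated data. These were summed counts with counting error alone, so the test does not cover the spread between cells. The scripts ran under Python 3.11.15 with scipy 1.17.1, numpy 2.4.6, igraph 0.11.9, leidenalg 0.10.2 and pandas 2.3.3. Gene positions are from GENCODE on GRCm38.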

Additional observations from a re-analysis of the deposited data

How the results depend on the processing

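Of 763 log2 ratios recomputed, 666 kept their sign and 97 did not. Of those 97, 82 belonged to differences that had not passed the 2-fold rule, and 15 to ones that had, which were *Ccl8*, *Ccl24* in ConA+FICZ over ConA+Veh and *Ccl2* of monocyte-like cells. Whatever their sign, 532 ratios stayed within the counting interval of the reported value. The log2 ratio of *Ccl24* in ConA+TCDD over ConA+Veh ran from 2.30 to 3.03 in macrophage-like cells and from 2.10 to 3.59 in the joined class over the alternatives. *Ccl24* in ConA+FICZ over ConA+Veh turned in macrophage-like cells to -1.15 as a mean over cells of each cell's depth-scaled UMIs, -0.58 without the cell with the most UMIs, -0.66 without the top 3 cells and -1.39 without cells holding 2 markers of a second class, and in the joined class to -1.08, -0.22, -0.39 and -1.34. *Ccl8* in ConA+Veh over Naïve turned to 0.17 in macrophage-like and 1.27 in joined cells without the top cell, to 0.56 and 1.86 with the gate read at 1000 UMIs per cell, and to 0.91 in joined cells without second-class cells. *Ccl8* in ConA+FICZ over ConA+Veh turned to -0.33 in macrophage-like cells without the top cell. *Ccl2* of monocyte-like cells in ConA+FICZ over ConA+Veh turned to -1.44 without second-class cells.

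Of 87 counts of members that passed, 74 stayed within 1.5 times and 13 did not, but the members and directions were those reported in only 51 of the 87. The share over all genes was computed for the reported setting alone. For ConA+Veh over Naïve in macrophage-like cells a like count of 4 without the top 3 cells held *Ccl2*, *Ccl7*, *Ccl12* and *Ccl24*, all higher, and without second-class cells *Ccl24* was lower in ConA+FICZ. In macrophage-like cells the count was 3 for ConA+Veh over Naïve and became 5 with 1 marker more in the gate and 6 at 1.5-fold. For ConA+TCDD it was 1 and became 4 without the top 3 cells (*Ccl2*, *Ccl7* and *Ccl12* lower) and 3 with the gate read at 1000 UMIs (*Ccl2* and *Ccl7* higher), and for ConA+FICZ it was 3 and became 0 without the top cell or the top 3. Of the levels in CPM 406 moved by less than their interval and 396 by more, and of the shares of cells 513 and 163. In the joined class the count of 1 for ConA+TCDD became 3 without the top cell, 4 without the top 3, 2 with the gate at 1000 UMIs, 3 at 1.5-fold and 2 with no interval asked for, and that of 3 for ConA+FICZ became 0 without the top cell or the top 3. The cause was not tested beyond what leaving out the named cells shows. The joined class and leaving out the top 3 cells were chosen after seeing the data. *Ccr2* of the joined class in ConA+Veh over Naïve ran from -1.502 to -0.51, *Ccl12* from 1.25 to 5.54 and *Ccl6* of macrophage-like cells from -1.69 to -0.63.

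No paired analysis was possible because each condition has 1 library, and no library could be left out for the same reason. Clustering gave no separate cluster for macrophage-like or monocyte-like cells, so under it only the joined class was compared. With 15 macrophage-like cells in Naïve and 25 in ConA+TCDD, a few cells decide many of the Naïve and ConA+TCDD values, and counting intervals do not cover this.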
